A study of Mus musculus with 12 samples.

Results

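The histone genes of mouse thymocytes were followed across 4 groups of sorted cells. They were chosen by symbol: every gene named H1f, H2ac, H2bc, H3c or H4c with a number, both H2az genes, H2ax, both H3f3 genes and both Macroh2a genes. This gave 75 of the 49997 genes in the count tables, made up of 10 linker genes (H1f), 18 H2ac, 16 H2bc, 12 H3c and 12 H4c core genes, and 7 variant genes. Of the 75, 55 lie on chromosome 13 and 11 on chromosome 3. The libraries were made from poly(A) RNA, and most core histone mRNAs end without a poly(A) tail, so the genes whose mRNA lacks a tail are undercounted by the method.

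The 4 groups were CD4 thymocytes with a Satb1 knockout (CD4 KO), WT CD4 thymocytes (CD4 WT), DP thymocytes with the same knockout (DP KO) and WT DP thymocytes (DP WT), with 3 libraries each. Every library, WT included, came from thymus labelled as treated with tamoxifen, the agent that induced the knockout. SATB1 is a DNA-binding protein that organises chromatin in T cells. DP cells carry both CD4 and CD8, and CD4 cells are the later stage that keeps CD4 alone. A Cre driver and the age of the mice are not named in the labels. Nor do they tell if each library is a mouse of its own, and each p-value therefore rests on spread that may be technical. Depth was highest in CD4 KO replicate 2, with 62422640 counts, and lowest in DP WT replicate 3, with 22790504. Levels are given as CPM, counts per 1000000 after TMM scaling over all 12 libraries, and each set of 3 values runs from replicate 1 to replicate 3.

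Chromatin is built from nucleosomes, in which DNA wraps around an octamer of the core histones H2A, H2B, H3 and H4, and a linker histone H1 sits where the DNA enters and leaves. The genes for the core histones and for most H1 proteins lie in clusters, have no introns, and are transcribed mainly in S phase, when new DNA must be packed. Their mRNAs end in a conserved stem-loop bound by SLBP in place of a poly(A) tail. Most variant histones are made from single genes with introns and polyadenylated mRNA through the whole cell cycle, and replace the core forms at particular sites. In the thymus, early DP cells divide fast and then leave the cycle before they are selected, so the demand for histones differs between stages.

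The stem-loop sets apart the histone mRNAs that poly(A) selection should miss, and the sites of 6 genes are printed because these genes stand for the classes described below. The sequences were read from GENCODE M21 transcripts on GRCm38 and run 5′ to 3′ in DNA letters, with the bases that pair in the stem in capitals. The sites lie at chr13:21833026-21833049 on the minus strand for H2ac24, chr3:96246027-96246052 (plus) for H2ac18, chr13:22036295-22036320 (plus) for H2bc12, chr13:23752815-23752840 (plus) for H3c2, chr13:22040961-22040986 (minus) for H4c9 and chr9:44335235-44335260 (plus) for H2ax.
H2ac24: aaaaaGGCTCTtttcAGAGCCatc
H2ac18: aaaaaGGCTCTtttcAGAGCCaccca
H2bc12: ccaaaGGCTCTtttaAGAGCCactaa
H3c2: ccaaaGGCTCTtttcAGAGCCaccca
H4c9: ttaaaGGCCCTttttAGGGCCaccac
H2ax: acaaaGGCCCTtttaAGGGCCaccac
The stem-loop consensus of histone mRNA was searched on the transcript strand. It was found in an annotated transcript of 44 of the 75 genes (58.7%), against 209 of 58797 protein-coding transcripts of the whole annotation (0.355%). It was in 11 of 12 H4c genes, 9 of 12 H3c genes, 10 of 18 H2ac genes, 9 of 16 H2bc genes and 4 of 10 H1f genes. Among the variants it was found in H2ax alone, which is known to give both a stem-loop and a polyadenylated mRNA. The commonest form, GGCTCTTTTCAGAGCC, was that of 24 genes. The annotated transcript went on for 3 bases after the stem-loop of H2ac24, for 330 bases after that of H4c9 and for 822 bases after that of H2ax. For some genes without a match the annotated transcript may end before the stem-loop. That of H4c12 had 312 bases, where the counted length of the gene was 409.

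The promoters of the clustered genes shared short elements. The 250 bases before the start of H2bc12, a core H2B gene that rose in CD4 KO cells, and of H2ac18, a core H2A gene that did not differ between the WT stages beyond its spread, are printed from RefSeq on GRCm38.p6 to set these elements side by side. Capitals mark matches to CCAAT, to TATAAA (the letters of the TATA box) and to the octamer ATTTGCAT, each at any position and on either strand. The windows are chr13:22035571-22035820 (plus) for H2bc12 and chr3:96245247-96245496 (plus) for H2ac18.
H2bc12: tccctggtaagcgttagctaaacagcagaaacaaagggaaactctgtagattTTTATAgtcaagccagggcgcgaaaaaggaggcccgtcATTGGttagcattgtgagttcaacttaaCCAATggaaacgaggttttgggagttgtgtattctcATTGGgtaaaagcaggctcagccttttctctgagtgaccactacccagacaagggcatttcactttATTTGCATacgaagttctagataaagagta
H2ac18: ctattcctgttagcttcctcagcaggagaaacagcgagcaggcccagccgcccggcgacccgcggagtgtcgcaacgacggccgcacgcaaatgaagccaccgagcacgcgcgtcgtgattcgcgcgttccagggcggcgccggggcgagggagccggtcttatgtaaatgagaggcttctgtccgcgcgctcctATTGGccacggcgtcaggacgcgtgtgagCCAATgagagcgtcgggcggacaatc
CCAAT, the site of the factor NF-Y, was in the RefSeq promoters of 53 of the 68 histone genes that had one (77.9%), against 34.5% of the 27025 promoters of all genes, each read over the 250 bases before the start. It was in all 17 H2ac and all 14 H2bc promoters but in 3 of 11 H4c promoters. TATAAA, the letters of the TATA box, was found at any position and on either strand in 42.6% of histone promoters against 13% of all. The octamer ATTTGCAT, known as a site of OCT1 in H2B promoters, was in 6 of 14 H2bc and 6 of 17 H2ac promoters and in no H1f, H3c or H4c promoter, against 1.61% of all. Some windows of neighbouring genes overlap, as those of H2ac12 and H2bc12 or of H2ac8 and H2bc8, so the same bases can count for both classes. The first bases of the printed H2bc12 window, with its marked TATAAA match on the minus strand, lie inside H2ac12, a gene on the other strand. A match describes the letters in the window and is not a measured binding site.

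Before the comparisons, several facts of the libraries bear on the histone counts. Satb1 had 1482, 1546 and 1470 CPM in CD4 KO cells, against 3515, 3301 and 3002 CPM in CD4 WT cells, and 2497, 2875 and 2456 CPM in DP KO cells, against 3891, 3834 and 3875 CPM in DP WT cells, so it was lower in every library labelled KO but still counted. A list of 10 CD4 stage markers summed to 2116 to 2251 CPM in CD4 KO, 3662 to 3834 CPM in CD4 WT, 1680 to 1789 CPM in DP KO and 1816 to 1875 CPM in DP WT cells. DP WT replicates 1 and 2 stood apart from the other libraries in Xist, the RNA of the inactive X chromosome, at 0.845 and 0.273 CPM, against 476 CPM in DP WT replicate 3 and 190 to 601 CPM in the other 9 libraries. This split of the DP WT libraries enters every comparison that uses them, and its part was not tested. RNAs that carry no poly(A) tail were also uneven. Rn7sk, the 7SK RNA, had 19.2, 7.09 and 9.73 CPM in CD4 KO, 6.72, 4.60 and 11.6 CPM in CD4 WT, 5.83, 2.42 and 9.19 CPM in DP KO and 82.7, 24.3 and 35.8 CPM in DP WT cells. The summed list of 23 such RNAs spanned 86.3 to 345 CPM in DP WT cells and 21.5 to 106 CPM over the other 9 libraries, so all 3 DP WT libraries exceeded all DP KO and all CD4 WT libraries. Its values are given again beside each comparison that they move with.

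The histone genes took 0.207% to 0.571% of all counts. Per kilobase of annotated length and averaged over the 12 libraries, H2ac24 was the most counted at 762 CPM per kb, followed by the H3.3 gene H3f3a at 661, H2az1 at 502, the core gene H2ac23 at 463 and the other H3.3 gene, H3f3b, at 273. The median gene of the H2ac class had 40.1 CPM per kb, against 2.32 CPM per kb for H2bc, 3.94 for H3c, 3.36 for H4c, 1.89 for H1f and 164 for the variants. Copies of the H2ac genes are close to identical, and for 11 of the 18 more than 50% of all 150-base windows of the transcript were also found in another gene; in H2ac24 the share was 91.0%, in H2ac23 91.5% and in H2ac19 100%. The treatment of reads that match several genes is not given in the sources used here, so how the H2ac counts divide between copies is uncertain. The same holds in part for 5 of 12 H3c, 3 of 12 H4c and 2 of 16 H2bc genes, whose windows were shared at over 50%. Germline forms were barely counted. H1f6 and H1f7 of the testis, and the testis forms H2ac1 and H2bc1, had 13, 2, 2 and 20 counts over all 12 libraries together.

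In CD4 cells the knockout went with more histone mRNA in every class. The summed H3c genes had 21.5, 17.6 and 22.2 CPM in CD4 KO cells, against 11.3, 9.81 and 10.8 CPM in CD4 WT cells. The summed H2ac genes had 797, 666 and 1046 CPM in CD4 KO cells, against 323, 218 and 373 CPM in CD4 WT cells. The H2bc sum was 38.9, 32.4 and 44.7 CPM in CD4 KO cells, against 24.4, 25.8 and 25.9 CPM in CD4 WT cells. The H4c sum was 20.1, 17.7 and 15 CPM in CD4 KO cells, against 9.36, 9.67 and 11.9 CPM in CD4 WT cells. In all 6 classes, the variants and linkers included, the lowest CD4 KO library lay above the highest CD4 WT library.

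**Figure D1:**
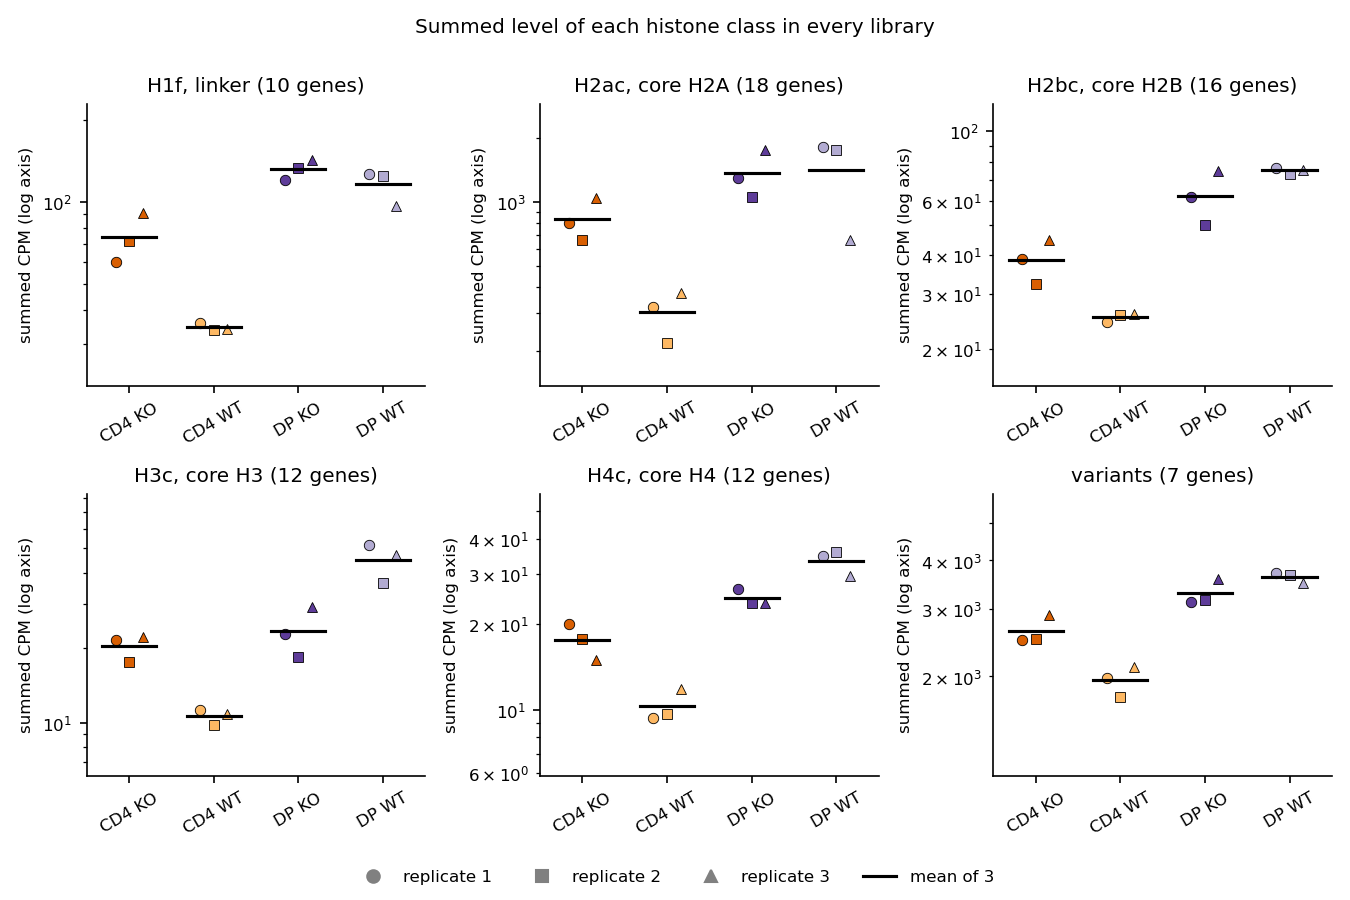
Summed CPM of each histone class in each library (log axis), with 1 symbol per replicate and a line at the mean of 3. CD4 KO lies above CD4 WT in every class, and the H2ac panel shows DP WT replicate 3 at 664 CPM, below the 1814 and 1756 CPM of the other DP WT libraries.

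Each gene was tested with edgeR's quasi-likelihood test over all genes of a comparison, and a gene was called at a Benjamini-Hochberg adjusted p under 0.05. In CD4 KO against CD4 WT cells, 34 of the 68 histone genes tested were called higher, where 20.9% of all 17316 genes tested were called higher, 18.6% lower and 39.5% in either direction. The test called 0 histone genes lower, with 2 lower at an unadjusted p under 0.05, 2 called by the DESeq2 Wald test and 1 called with the replicate number as a block. The median log2 fold change was 1.07 over the histone genes and 0.00 over all genes. All 3 CD4 KO libraries lay above all 3 CD4 WT libraries for 45 of the 68 genes, against 26.9% of all genes, and within each of the 3 batches that the labels number, CD4 KO lay above CD4 WT for 55 of the 68, against 34.4% of all genes. Leaving out the H2ac genes, 23 of 52 were called higher. Leaving out 1 library at a time gave 26 to 34 called higher.

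Of the 7 linker genes tested, 4 were called higher in CD4 KO cells, where 20.9% of all genes tested were. H1f10, the H1X gene, had 2.14, 2.40 and 4.21 CPM in CD4 KO cells, against 0.924, 0.690 and 0.738 CPM in CD4 WT cells, with no overlap and a log2 fold change of 1.88 ± 0.32 (SE, adjusted p = 0.00129). H1f0, the linker gene of differentiated cells with a polyadenylated mRNA, had 48.4, 61.8 and 76.9 CPM in CD4 KO cells, against 29.4, 27.2 and 27.1 CPM in CD4 WT cells. Its log2 fold change was 1.16 ± 0.15 (adjusted p = 0.000217). An antisense gene overlaps H1f10 and another overlaps H1f0, and the strand setting of the counts is not known. H1f5, one of the S phase linkers, had 1.16, 0.728 and 0.672 CPM in CD4 KO cells, against 0.250, 0.112 and 0.268 CPM in CD4 WT cells, a log2 fold change of 2.05 ± 0.46 (adjusted p = 0.00604). H1f2, an S phase linker, had 4.80, 4.37 and 6.34 CPM in CD4 KO cells and 3.27, 4.18 and 4.53 CPM in CD4 WT cells, groups that overlapped, and was not called.

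Core genes on chromosome 13 made up most of the calls. Of the 46 core genes tested there 27 were called higher and their median log2 fold change was 1.31, while of the 9 core genes tested on chromosome 3 edgeR called 0, with 2 higher and 2 lower at an unadjusted p under 0.05, and the median was 0.24. For the chromosome 3 genes 6 of 9 estimates were above 0, and a difference between the clusters was not tested. By class, 11 of 16 H2ac, 7 of 15 H2bc, 7 of 12 H3c and 2 of 12 H4c genes were called higher, where 20.9% of all genes tested were. Calls of H4c genes were thus no more frequent than calls over all genes. H2ac24 had 290, 232 and 395 CPM in CD4 KO cells, against 90.5, 70.2 and 137 CPM in CD4 WT cells, and H2ac23, its near copy, had 217, 176 and 298 CPM in CD4 KO cells, against 65.5, 53.6 and 98.8 CPM in CD4 WT cells. Their log2 fold changes were 1.63 ± 0.25 and 1.67 ± 0.24, with adjusted p of 0.00074 and 0.000491. H3c2 had 2.10, 1.52 and 2.57 CPM in CD4 KO cells, against 0.905, 0.652 and 0.570 CPM in CD4 WT cells, a log2 fold change of 1.52 ± 0.31 (adjusted p = 0.00356). H3c3 rose alike, with 1.62 ± 0.24 (adjusted p = 0.000673). H2ac11, a core H2A gene, had 67.1, 62.1 and 87.9 CPM in CD4 KO cells, against 20.3, 18 and 31.3 CPM in CD4 WT cells, up by 1.65 ± 0.20 on the log2 scale (adjusted p = 0.000198). H2ac12 and H2ac14, the second annotated as a pseudogene, had no overlap either, and their changes were 1.39 and 1.55.

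Among the H2B genes, H2bc12 had 2.64, 2.09 and 4.19 CPM in CD4 KO cells, against 0.886, 0.913 and 1.64 CPM in CD4 WT cells, a log2 fold change of 1.40 ± 0.35 (adjusted p = 0.0103). H2bc11 was called as well, with 2.74, 2.37 and 3.89 CPM in CD4 KO cells, against 1.098, 0.820 and 1.44 CPM in CD4 WT cells, and H2bc4 with a smaller change, 5.17, 4.93 and 6.51 CPM in CD4 KO cells, against 3.00, 3.22 and 3.25 CPM in CD4 WT cells. H2bc21, an H2B gene of chromosome 3 with a long counted exon length of 2667 bases, had 16.2, 13.6 and 14.5 CPM in CD4 KO cells and 13.3, 15.6 and 12.2 CPM in CD4 WT cells, so the groups overlapped. H4c9, an H4 gene, had 7.48, 7.56 and 7.04 CPM in CD4 KO cells, against 2.66, 3.26 and 3.96 CPM in CD4 WT cells. Its log2 fold change was 1.17 ± 0.17 (adjusted p = 0.000602). The pair H2ac18 and H2ac19, near-identical copies on chromosome 3, each with an antisense gene over it, did not follow the rest. H2ac18 had 9.0, 11.3 and 8.66 CPM in CD4 KO cells and 13, 11.3 and 12.7 CPM in CD4 WT cells, and neither copy was called.

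The variants split by kind. H2ax, whose protein is phosphorylated beside DNA breaks, had 178, 171 and 212 CPM in CD4 KO cells, against 70.5, 57.8 and 75.7 CPM in CD4 WT cells, a log2 fold change of 1.46 ± 0.12 (adjusted p = 1.47e-05). H2az1, which encodes the promoter variant H2A.Z, had 501, 500 and 584 CPM in CD4 KO cells, against 239, 198 and 290 CPM in CD4 WT cells, a log2 fold change of 1.13 ± 0.13 (adjusted p = 0.000136). H2az2, the second H2A.Z gene, rose as well, with 101, 101 and 123 CPM in CD4 KO cells, against 73.1, 65.4 and 72.9 CPM in CD4 WT cells and a change of 0.62 ± 0.09 on the log2 scale (adjusted p = 0.000521). Both H3.3 genes, whose protein is deposited outside replication, and Macroh2a1, a variant of silent chromatin, were not called. H3f3a had 642, 599 and 765 CPM in CD4 KO cells and 559, 541 and 630 CPM in CD4 WT cells, a log2 fold change of 0.22 ± 0.10 (adjusted p = 0.126). With the replicate number as a block H3f3a was called, at a log2 fold change of 0.21. H3f3b stood at 0.21 ± 0.12 (adjusted p = 0.199) and Macroh2a1 at 0.15 ± 0.07 (adjusted p = 0.109), and without CD4 KO replicate 3 Macroh2a1 was called at 0.19. Macroh2a2 was near the limit of detection, with 5, 18 and 8 counts in CD4 KO libraries and 2, 0 and 0 counts in CD4 WT libraries, and was not tested here.

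**Figure D2:**
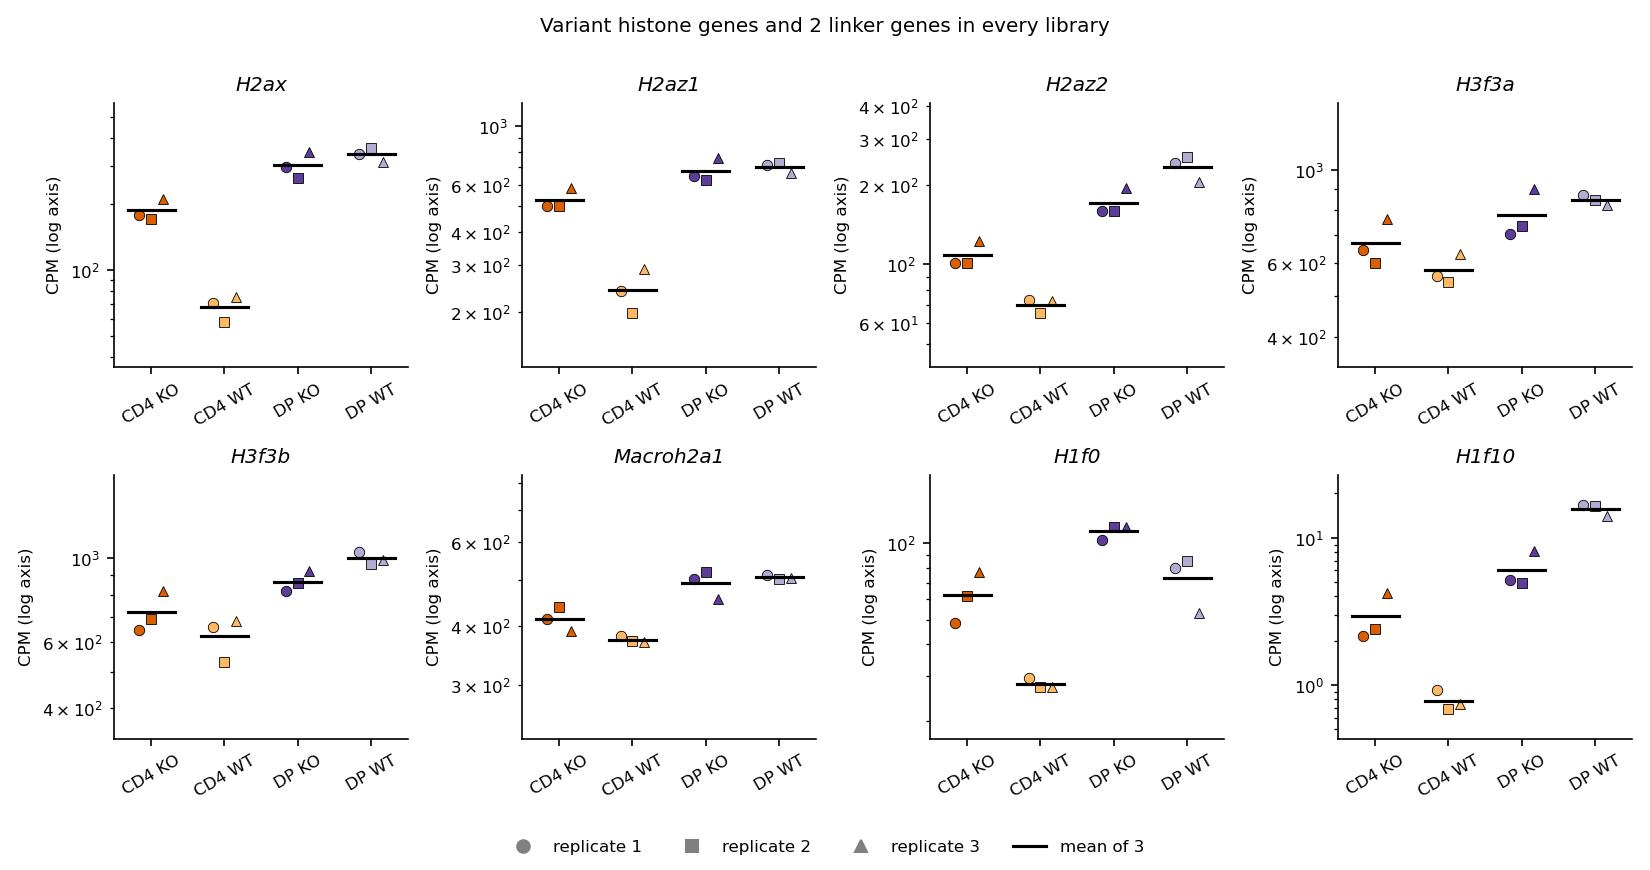
CPM of 6 variant genes and 2 linker genes in each library (log axes), with 1 symbol per replicate and a line at the mean of 3. H2ax, H2az1, H2az2, H1f0 and H1f10 have all CD4 KO libraries above all CD4 WT libraries, and the H3f3 genes and Macroh2a1 lie close together in these groups.

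Genes of the cell cycle moved with the histone genes in CD4 cells. All 36 genes of an S phase list were called higher in CD4 KO cells, at a median of 1.21 on the log2 scale and a summed level of 4179 to 4636 CPM in CD4 KO against 1793 to 2419 CPM in CD4 WT cells. All 24 genes of a G2/M list were called higher too, with a median of 1.56. Per 1000 counts of the S phase genes, the H3c genes had 4.88, 4.20 and 4.78 counts in CD4 KO cells and 5.35, 5.47 and 4.48 counts in CD4 WT cells, so on that scale the groups overlapped. The H2bc genes had 8.82, 7.75 and 9.64 counts per 1000 in CD4 KO cells, against 11.5, 14.4 and 10.7 in CD4 WT cells, and there the KO libraries were the lower ones. They were the lower ones also for the S phase linkers H1f1 to H1f5, with 2.16, 1.81 and 2.18 in CD4 KO cells, against 2.65, 3.23 and 2.62 in CD4 WT cells, and for the variants, with 563, 598 and 624 in CD4 KO cells, against 936, 985 and 877 in CD4 WT cells. The H4c genes overlapped, with 4.55, 4.23 and 3.24 in CD4 KO cells and 4.43, 5.40 and 4.91 in CD4 WT cells. The H2ac genes alone stood higher on this scale, with 181, 159 and 226 in CD4 KO cells, against 153, 122 and 154 in CD4 WT cells. Of 10 DP stage marker genes, 8 were called higher and 1 lower in CD4 KO cells, and they summed to 2926 to 3517 CPM in CD4 KO cells, against 1539 to 1986 CPM in CD4 WT cells and 13234 to 14425 CPM in DP WT cells. In bulk RNA a change in the share of cells of a type and a change in RNA per cell cannot be told apart. Of the 6 genes of a DN (double-negative) thymocyte list, 5 were called higher and 1 lower, and they summed to 358 to 502 CPM in CD4 KO against 182 to 198 CPM in CD4 WT cells. The list is not particular to DN cells here. In CD4 WT against DP WT cells 4 of the 6 were called higher, and the DP WT sum was 38.3 to 66.8 CPM. A CD8 cell list, which shares Cd8a and Cd8b1 with the DP list, had 1 of 6 called higher (Cd8b1) and 1 lower (Runx3). Its sum was 499 to 618 CPM in CD4 KO against 265 to 400 CPM in CD4 WT cells. The part of cycling, DP, DN or CD8 cells in the histone result was not tested. Of the RNAs without a poly(A) tail 1 of 12 was called, and their summed level overlapped between CD4 KO (30.1 to 106 CPM) and CD4 WT (23 to 41.0 CPM) cells.

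Some genes of the apparatus around the histone mRNAs were higher in CD4 KO cells. Of 16 genes of histone mRNA transcription and 3′ processing, 6 were called higher and 1 lower. Over all genes tested 20.9% were called higher and 18.6% lower, and the median of the 16 was 0.19 on the log2 scale. Slbp, the stem-loop binding protein, had 148, 125 and 164 CPM in CD4 KO cells, against 67.9, 58.6 and 87.8 CPM in CD4 WT cells, up by 1.03 ± 0.15 on the log2 scale (adjusted p = 0.00047). The exonuclease gene Eri1, which trims and degrades histone mRNA, rose by 0.60 on the log2 scale and Cstf2, a cleavage factor, by 0.57. Of 28 histone chaperone and deposition genes, at a median of 0.22 on the log2 scale, 5 were called lower and 13 higher. They included Anp32e, the chaperone that removes H2A.Z, at 1.26, Asf1b, the H3-H4 chaperone of dividing cells, at 1.04, and Nap1l1, an H2A-H2B chaperone, at 0.83. Cenpa, the centromeric H3 variant, which the symbol rule does not take in, rose by 1.00 on the log2 scale.

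In DP cells the knockout went the other way for a set of linker, H3 and H4 genes, while the sums of the H2ac, H2bc and variant genes overlapped between the groups. The H3c sum was 22.8, 18.4 and 29.2 CPM in DP KO cells, against 51.7, 36.3 and 47.1 CPM in DP WT cells, with no overlap. The H4c sum was 26.7, 23.8 and 23.8 CPM in DP KO cells, against 34.7, 35.9 and 29.6 CPM in DP WT cells, again with no overlap. The H2bc sum overlapped, with 61.5, 49.9 and 74.8 CPM in DP KO cells and 76.5, 73.2 and 75.3 CPM in DP WT cells. The H2ac sum overlapped as well, with 1308, 1059 and 1769 CPM in DP KO cells and 1814, 1756 and 664 CPM in DP WT cells.

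Of the 70 histone genes tested in DP KO against DP WT cells, 25 were called lower and 1 higher, where 14.1% of all 16776 genes tested were called lower and 16.7% higher. Their median log2 fold change was -0.61, against 0.01 over all genes. All 3 DP KO libraries lay below all 3 DP WT libraries for 29 of the 70 genes, against 21.7% of all genes, and within each of the 3 batches DP KO lay below DP WT for 37 of the 70, against 29.5% of all genes. Without the H2ac genes 23 of 54 were called lower. The count of 25 depended on single libraries: it was 13 without DP WT replicate 1 and 15 without DP KO replicate 2. With DP WT replicate 3 as the only DP WT library, 5 genes were called lower and 7 higher, and with DP WT replicate 2 as the only one, 7 lower and 0 higher. In these fits the lone library is assumed to vary like the DP KO libraries, whose spread is all they have. In Xist, DP WT replicate 3 alone of the DP WT libraries (476 CPM) was like the DP KO libraries (191, 283 and 601 CPM). The part of whatever sets DP WT replicates 1 and 2 apart in Xist was not tested.

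Of the 8 linker genes tested, 5 were called lower in DP KO cells, where 14.1% of all genes tested were. H1f1, an S phase linker, had 1.31, 1.41 and 1.73 CPM in DP KO cells, against 6.24, 4.18 and 4.33 CPM in DP WT cells, a log2 fold change of -1.72 ± 0.23 (adjusted p = 0.000491). H1f3 had 1.20, 1.32 and 1.69 CPM in DP KO cells, against 4.71, 2.75 and 4.64 CPM in DP WT cells, a log2 fold change of -1.51 ± 0.27 (adjusted p = 0.0025). H1f10 had 5.19, 4.93 and 8.09 CPM in DP KO cells, against 16.7, 16.4 and 14 CPM in DP WT cells, a log2 fold change of -1.37 ± 0.19 (adjusted p = 0.000628). H1f0 was the exception among linkers and the only histone gene called higher, with 103, 115 and 116 CPM in DP KO cells, against 79.7, 84.9 and 53.3 CPM in DP WT cells. Its log2 fold change was 0.62 ± 0.15 (adjusted p = 0.0112). Since H1f0 holds most linker counts, the H1f sum was not lower in DP KO cells (120, 132 and 143 CPM) than in DP WT cells (127, 124 and 96.8 CPM), and counted per kb of transcript its log2 ratio changed sign, to -0.18.

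Of the 12 H3c genes 9 were called lower in DP KO cells, with log2 fold changes between -0.998 and -1.44. H3c2 had 1.92, 1.69 and 3.33 CPM in DP KO cells, against 5.58, 4.64 and 6.65 CPM in DP WT cells, a log2 fold change of -1.27 ± 0.27 (adjusted p = 0.00666). H3c15, on chromosome 3, had 1.87, 1.78 and 2.31 CPM in DP KO cells, against 5.21, 2.98 and 4.64 CPM in DP WT cells, a log2 fold change of -1.09 ± 0.25 (adjusted p = 0.00889). H3c14 (-1.12) lost its call without DP WT replicate 1, at -0.93, and H3c13 (-1.18) without DP KO replicate 2, DP WT replicate 1 or DP WT replicate 3, with -1.44 to -0.88 over all libraries left out. H3c3 did not follow, with 3.68, 3.50 and 5.27 CPM in DP KO cells and 4.20, 3.36 and 4.55 CPM in DP WT cells. Of the H4c genes 5 of 12 were called lower, among them the near-identical H4c18 at -1.09 ± 0.26 (adjusted p = 0.0103), while H4c9 had 10.5, 9.07 and 11.1 CPM in DP KO cells and 6.58, 12 and 9.69 CPM in DP WT cells. Of the H2bc genes 3 of 15 were called lower, where 14.1% of all genes tested were. H2bc18, on chromosome 3, had 0.904, 0.990 and 0.647 CPM in DP KO cells, against 4.75, 1.53 and 2.32 CPM in DP WT cells, a log2 fold change of -1.74 ± 0.41 (adjusted p = 0.011). An antisense gene overlaps H2bc18, and the same holds for H3c13, H1f0, H1f10, H3f3a, Macroh2a1 and Macroh2a2. Without the strand of the reads the counts of such pairs cannot be told apart.

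Of the 16 H2ac genes tested 2 were called lower in DP KO cells, H2ac10 and H2ac15, which is no more than the 14.1% over all genes tested. H2ac10 had 1.81, 1.19 and 2.31 CPM in DP KO cells, against 49.0, 28.6 and 1.47 CPM in DP WT cells, a log2 fold change of -3.91 ± 0.88 (adjusted p = 0.00861). DP WT replicate 3 lay within the range of the KO libraries. H2ac10 was also high in CD4 WT replicate 1, with 7.36 CPM against 0.317 and 0.671 CPM in the other CD4 WT libraries. H2ac7 behaved alike, with 22.5, 20.2 and 29.1 CPM in DP KO cells, against 103, 72.8 and 9.91 CPM in DP WT cells, and with 15.5 CPM in CD4 WT replicate 1 against 4.19 and 5.13 CPM in the others. H2ac24 did not share this pattern, with 478, 383 and 664 CPM in DP KO cells and 565, 578 and 250 CPM in DP WT cells. As a share of H2ac24, H2ac10 stood at 8.67%, 4.94% and 8.13% in DP WT replicates 1 and 2 and CD4 WT replicate 1, and between 0.311% and 0.589% in the other 9 libraries, and H2ac7 at 18.2%, 12.6% and 17.1% in those 3 libraries against 3.76% to 5.98% in the other 9. H2ac23, in contrast, kept to 71.9% to 76.4% of H2ac24 in all 12 libraries.

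**Figure D3:**
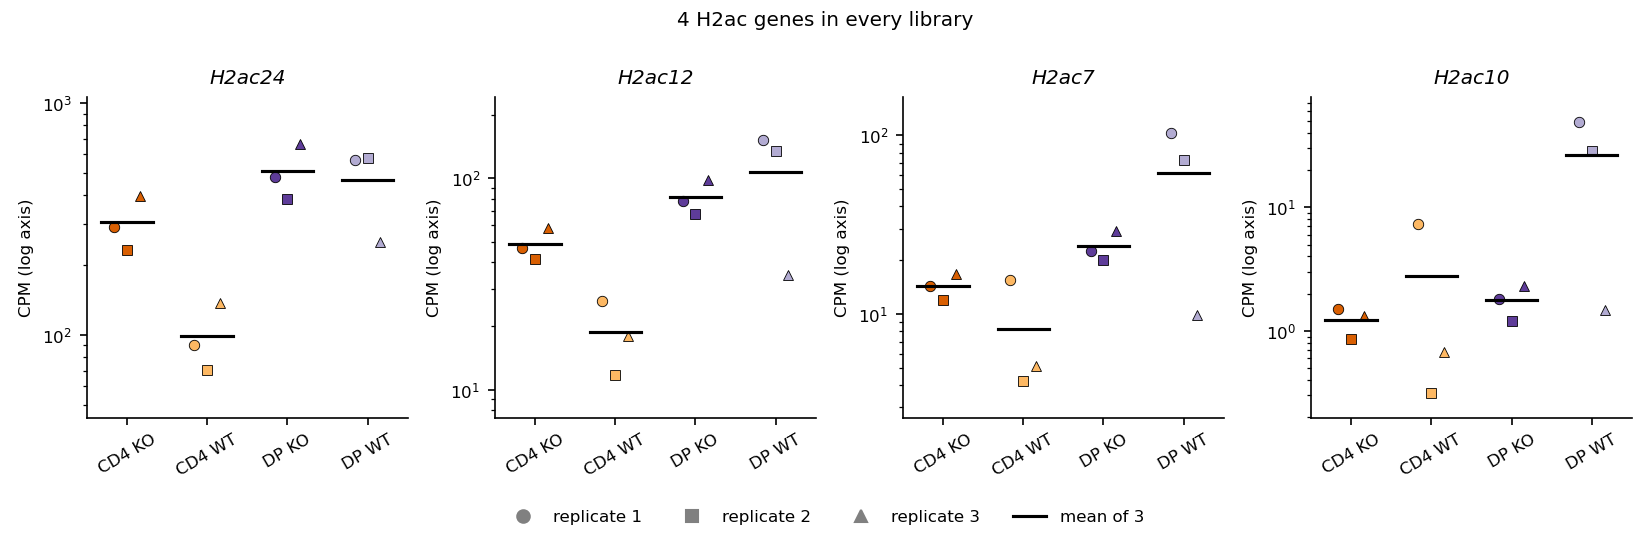
CPM of H2ac24, H2ac12, H2ac7 and H2ac10 in each library (log axes), with 1 symbol per replicate and a line at the mean of 3. In H2ac7 and H2ac10, DP WT replicates 1 and 2 and CD4 WT replicate 1 lie above the other libraries of their groups, as the 49.0 and 28.6 CPM of H2ac10 against 1.47 CPM in DP WT replicate 3 show.

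Where 14.1% of all genes tested were called lower and 16.7% higher, 1 of the 7 variants was called in DP KO cells. This was H2az2, with 160, 159 and 195 CPM in DP KO cells, against 243, 255 and 205 CPM in DP WT cells and a log2 fold change of -0.44 ± 0.11 (adjusted p = 0.0116). It lost its call without DP KO replicate 1 or without DP WT replicate 2, each time at -0.39. H2ax had 297, 264 and 345 CPM in DP KO cells and 339, 361 and 312 CPM in DP WT cells, a log2 fold change of -0.15 ± 0.10 (adjusted p = 0.305). H2az1 (-0.04 ± 0.08), H3f3a (-0.11 ± 0.09), H3f3b (-0.19 ± 0.07) and Macroh2a1 (-0.03 ± 0.07) had estimates near 0 that were not called. H3f3b was called by the DESeq2 Wald test, at -0.21, and without DP KO replicate 3 both H3f3a (-0.21) and H3f3b (-0.22) were called. Macroh2a2, a second macroH2A gene, was low but did not overlap, with 0.559, 0.220 and 0.323 CPM in DP KO cells, against 0.183, 0.105 and 0.0893 CPM in DP WT cells. Its log2 fold change was 1.504 ± 0.56 and was not called (adjusted p = 0.0721).

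RNAs that lack a poly(A) tail were lower in DP KO cells along with the histone genes. Of 12 such RNAs tested 7 were called lower in DP KO cells, at a median of -1.83 on the log2 scale, and Rn7sk fell by 3.04 on the log2 scale (adjusted p = 0.00216). The summed list of 23 had 42.2, 21.5 and 38.7 CPM in DP KO cells, against 345, 86.3 and 152 CPM in DP WT cells. Of the S phase genes 5 of 36 were called lower and none higher, with a median of -0.11, and of the G2/M genes 4 of 24 were called lower and none higher. The H3c genes had 4.23, 4.14 and 5.17 counts per 1000 S phase counts in DP KO cells, against 9.01, 5.74 and 7.73 in DP WT cells, with no overlap. The S phase linkers H1f1 to H1f5 did not overlap on this scale either. They had 2.26, 2.65 and 3.27 in DP KO cells, against 5.21, 3.54 and 4.78 in DP WT cells. The other core classes overlapped. The H4c genes had 4.97, 5.37 and 4.22 in DP KO cells and 6.04, 5.69 and 4.86 in DP WT cells, the H2bc genes 11.4, 11.2 and 13.3 in DP KO cells and 13.3, 11.6 and 12.4 in DP WT cells, and the H2ac genes 243, 239 and 314 in DP KO cells and 316, 278 and 109 in DP WT cells. The part of the unselected RNA in the histone result was not tested.

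**Figure D4:**
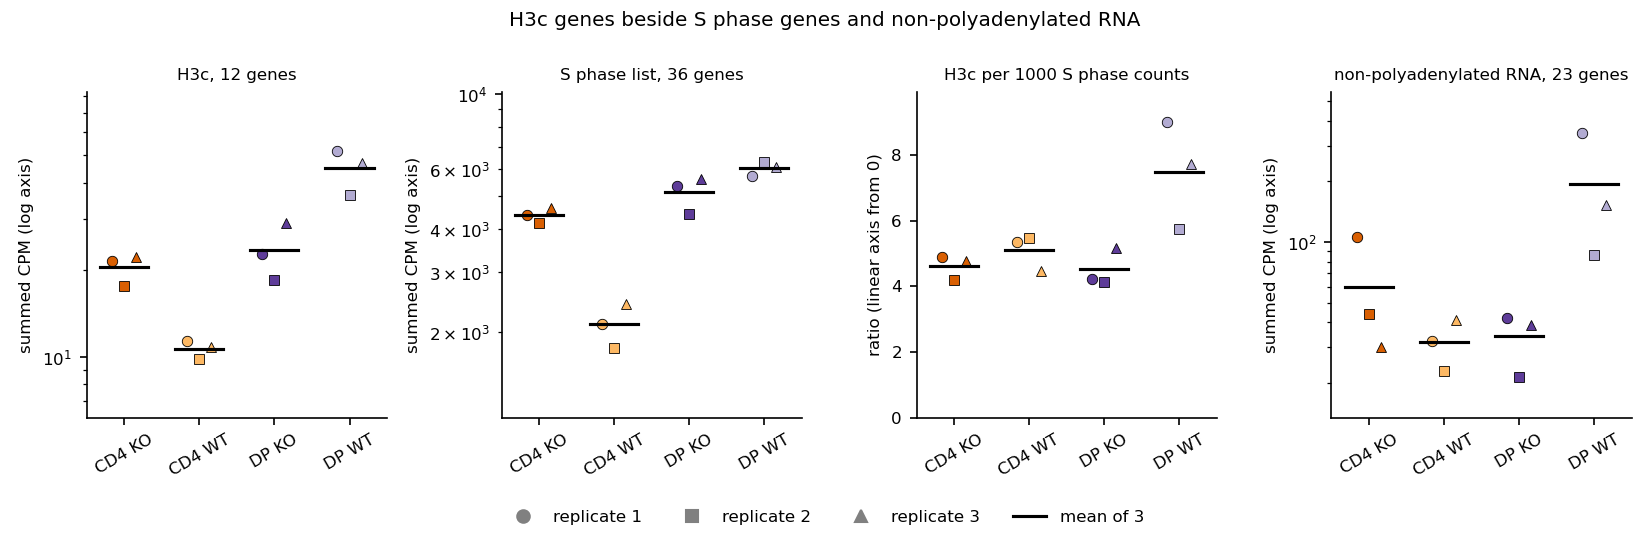
Each panel gives 1 value per library, from left to right the summed CPM of the 12 H3c genes, the summed CPM of 36 S phase genes (both log axes), H3c counts per 1000 S phase counts (linear axis) and the summed CPM of 23 RNAs without a poly(A) tail (log axis), with a line at the mean of 3. DP WT stands highest in the third panel, at 5.74 to 9.01. In the last panel DP WT spans 86.3 to 345 CPM, and CD4 KO replicate 1 reaches 106 CPM.

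Other cell markers moved too. The DN list of 6 genes had 4 called higher and 1 lower in DP KO cells and summed to 431 to 583 CPM in DP KO against 38.3 to 66.8 CPM in DP WT cells, with none of the 6 at 0 in any library, and its part in the histone values was not tested. Of the 10 DP markers 8 were called lower and 1 higher, with a sum of 7938 to 8182 CPM in DP KO against 13234 to 14425 CPM in DP WT cells. The CD8 list shares Cd8a and Cd8b1 with the DP list. It had 3 of 6 called lower, both of these genes among them, and 1 higher, Nkg7. Its sum was 2386 to 2392 CPM in DP KO against 3605 to 4317 CPM in DP WT cells. The part of the DP and CD8 lists was not tested either. Histone processing genes hardly moved, with 1 of 16 called lower, Zfp473 at -0.72 ± 0.16 (adjusted p = 0.00726). Slbp had 172, 138 and 189 CPM in DP KO cells and 175, 196 and 184 CPM in DP WT cells, and was not among the calls. Where 16.7% of all genes tested were called higher and 14.1% lower, none of the 28 chaperone genes was called lower and 3 were called higher. These were Ipo4, the importin that carries H3 and H4 to the nucleus (1.28), Npm1, a nucleolar chaperone (0.67), and Nap1l1 (0.34). H2bu2, an H2B gene outside the symbol rule, fell by 0.64 on the log2 scale.

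**Figure D5:**
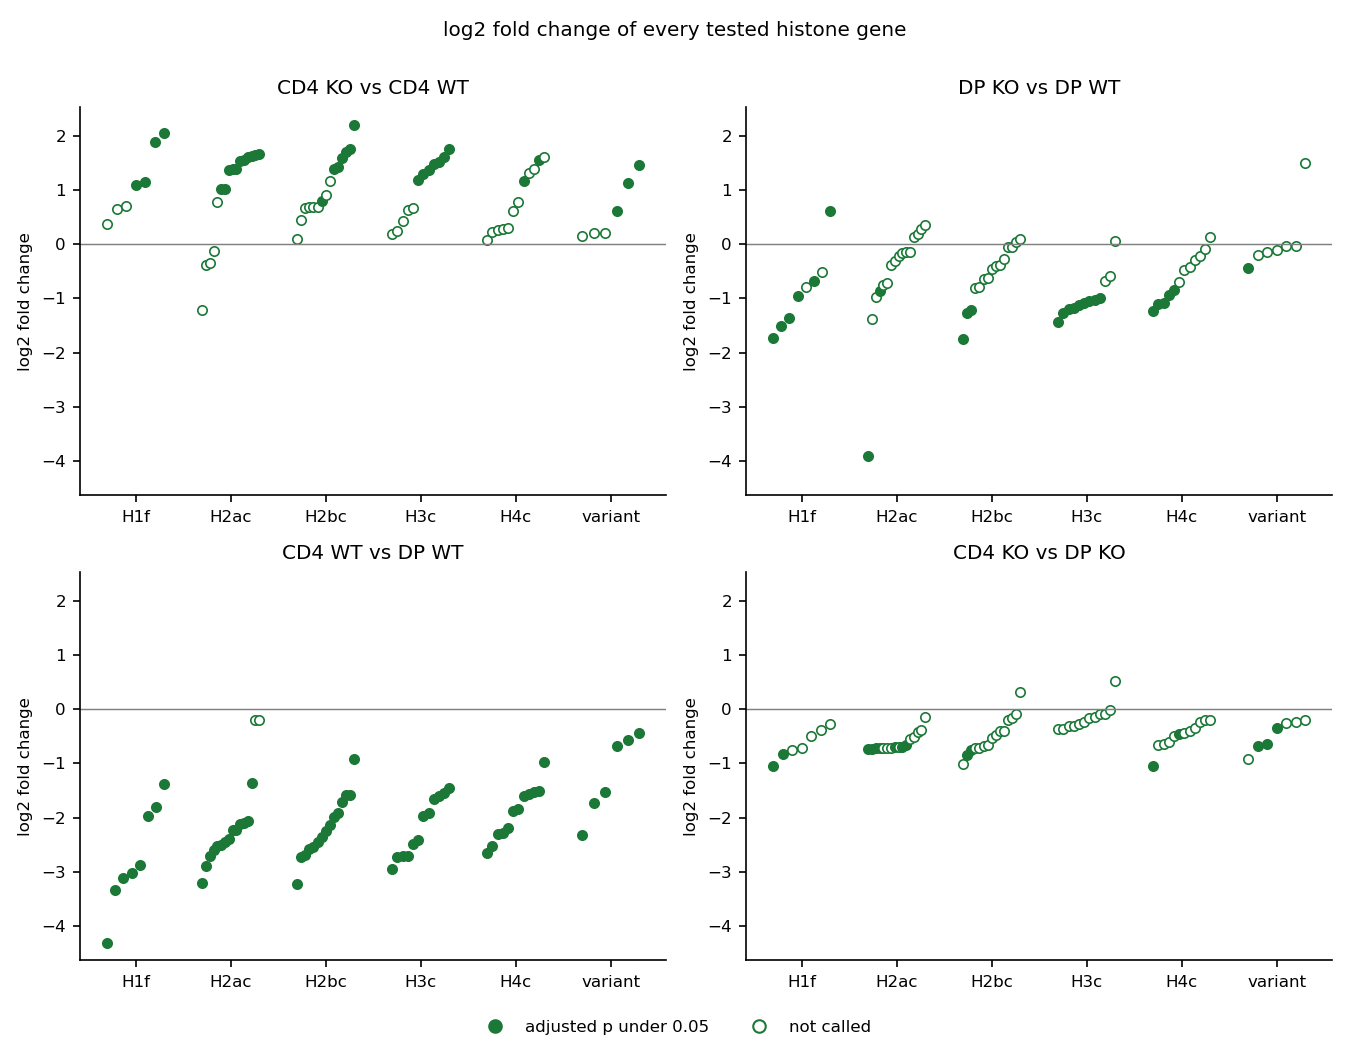
log2 fold change of every tested histone gene by class in 4 comparisons, 1 point per gene, filled where the adjusted p was under 0.05. In CD4 KO against CD4 WT the filled points all lie above 0, in DP KO against DP WT all but H1f0 (0.62) lie below 0, and in CD4 WT against DP WT 67 of 69 are filled and below 0.

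Between the stages, WT cells had fewer histone counts at the CD4 stage almost without exception. In CD4 WT against DP WT cells 67 of the 69 histone genes tested were called lower, where 27.1% of all 17369 genes tested were, and their median log2 fold change was -2.20, against 0.00 over all genes. The test called 0 higher, with 0 higher at an unadjusted p under 0.05 and 0 by the DESeq2 Wald test. The 2 genes not called were H2ac18 and H2ac19. H2ac18 had 13, 11.3 and 12.7 CPM in CD4 WT cells and 18.1, 13 and 10.9 CPM in DP WT cells, overlapping groups. The cell type and the count table go together in this comparison and in the next, and cannot be told apart.

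The range of these falls was wide. H1f10 had 0.924, 0.690 and 0.738 CPM in CD4 WT cells, against 16.7, 16.4 and 14 CPM in DP WT cells, a log2 fold change of -4.32 ± 0.17 (adjusted p = 2.59e-08), which was the largest of all 69. H1f5 followed at -3.34 ± 0.41 (adjusted p = 6.62e-05) and H2bc15, an H2B gene, at -3.22 ± 0.57 (adjusted p = 0.0008). H3c2 had 0.905, 0.652 and 0.570 CPM in CD4 WT cells, against 5.58, 4.64 and 6.65 CPM in DP WT cells, at -2.96 ± 0.25 on the log2 scale (adjusted p = 4.33e-06). Smaller falls were those of H2bc21, at -0.93 on the log2 scale, and of H2bc8, at -1.71 ± 0.21. The H4 genes H4c4, H4c8 and H4c17 stood at -1.85 ± 0.35, -1.56 and -1.52 ± 0.29, and each of these genes was called. The class medians were -2.95 for the H1f genes, -2.32 for H2ac, -2.24 for H2bc, -2.19 for H3c, -1.86 for H4c and -1.11 for the variants.

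Among the variants H2ax fell the most, with 70.5, 57.8 and 75.7 CPM in CD4 WT cells, against 339, 361 and 312 CPM in DP WT cells, a log2 fold change of -2.32 ± 0.10 (adjusted p = 5.2e-08). H2az2 had -1.74 ± 0.09 and H2az1 -1.54 ± 0.12. H3f3b (-0.68 ± 0.09), H3f3a (-0.56 ± 0.07) and Macroh2a1 (-0.44 ± 0.06) were called with smaller falls. All 36 S phase genes (median -1.30) and all 24 G2/M genes (median -2.49) were called lower in CD4 WT cells as well. Of the RNAs without a poly(A) tail 7 of 14 were called lower and 1 higher (median -2.19), and their part in the core histone result was not tested. Of the processing genes 11 of 16 were called lower and 1 higher. Slbp had 67.9, 58.6 and 87.8 CPM in CD4 WT cells, against 175, 196 and 184 CPM in DP WT cells, and fell by 1.38 on the log2 scale.

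The step between the stages was smaller in the knockout. In CD4 KO against DP KO cells 16 of the 69 histone genes tested were called lower, where 7.82% of all 16910 genes tested were, and 0 were called higher, with 0 at an unadjusted p under 0.05 and 0 by the DESeq2 Wald test. The median log2 fold change was -0.48, against 0.00 over all genes. With the replicate number as a block 31 were called lower. The count was 8 without DP KO replicate 1, 6 without CD4 KO replicate 1 and 6 without CD4 KO replicate 2. It was 9 of 53 without the H2ac genes.

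H2ax had 178, 171 and 212 CPM in CD4 KO cells, against 297, 264 and 345 CPM in DP KO cells, a log2 fold change of -0.67 ± 0.12 (adjusted p = 0.00575). H2az2 had 101, 101 and 123 CPM in CD4 KO cells, against 160, 159 and 195 CPM in DP KO cells, a log2 fold change of -0.64 ± 0.11 (adjusted p = 0.00498). H1f0 had 48.4, 61.8 and 76.9 CPM in CD4 KO cells, against 103, 115 and 116 CPM in DP KO cells, a log2 fold change of -0.82 ± 0.15 (adjusted p = 0.00644). H2bc21 had 16.2, 13.6 and 14.5 CPM in CD4 KO cells, against 27.3, 21.2 and 26.6 CPM in DP KO cells, a log2 fold change of -0.74 ± 0.13 (adjusted p = 0.00405). Among the more abundant called genes, the 3 most negative changes were those of H4c4 (-1.04 ± 0.30), H1f10 (-1.04 ± 0.30) and H2bc4 (-0.84 ± 0.18). H4c4 had 1.33, 0.867 and 0.602 CPM in CD4 KO cells, against 1.84, 2.11 and 1.92 CPM in DP KO cells. The call of H4c4 was lost without any 1 of the DP KO libraries or without CD4 KO replicate 2 or 3 (-1.38 to -0.83 over all libraries left out), and that of H1f10 without any 1 of the DP KO libraries or without CD4 KO replicate 1 or 2 (-1.40 to -0.79). H2bc4 lost its call without CD4 KO replicate 1 or 2 (-0.99 to -0.68). Of the 12 H3c genes edgeR called 0, also 0 at an unadjusted p under 0.05, and the H3c sums of 21.5, 17.6 and 22.2 CPM in CD4 KO cells and 22.8, 18.4 and 29.2 CPM in DP KO cells overlapped. None of the 11 RNAs without a poly(A) tail that were tested was called, 2 of 36 S phase genes and 14 of 24 G2/M genes were called lower, and none of these was called higher.

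The difference between the knockout effects was tested directly, as the effect in CD4 cells minus that in DP cells. Of the 70 histone genes tested 44 were called with a positive difference, where 14.4% of all 18431 genes tested were, and 0 with a negative one, which was also 0 at an unadjusted p under 0.05 and 0 by the DESeq2 Wald test. The median difference was 1.61 on the log2 scale, against 0.03 over all genes. Leaving out 1 library at a time gave 31 to 47 genes. H1f10 differed by 3.25 ± 0.38 (adjusted p = 2.95e-05), H3c7 by 2.92 ± 0.50 (adjusted p = 0.00068) and H2bc15 by 3.00 ± 0.69 (adjusted p = 0.00537). All 12 H3c genes and all 5 S phase linkers, H1f1 to H1f5, were called. Of the variants, H2ax (1.62 ± 0.17), H2az1 (1.17 ± 0.17) and H2az2 (1.07 ± 0.15) were called, and H3f3a, H3f3b, Macroh2a1 and Macroh2a2 were not, although H3f3a and H3f3b were with the replicate number as a block, at 0.34 and 0.41. All 36 S phase and all 24 G2/M genes, and 7 of 15 RNAs without a poly(A) tail, were called with a positive difference too, and their parts were not tested.

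The 2 knockout comparisons share no library. Of the histone genes called in both, 11 were lower in DP KO and higher in CD4 KO cells, and H1f0 was higher in both. The 11 are 44.0% of the 25 called lower in DP KO and 32.4% of the 34 called higher in CD4 KO cells. Over all genes the same pattern held 323, which are 13.7% of the 2362 called lower in DP KO and 8.94% of the 3614 called higher in CD4 KO cells. The 11 were H1f3, H1f10, H2ac15, H2az2, H2bc15, H3c2, H3c4, H3c7, H3c10, H3c11 and H4c12. Single libraries carried some of these calls. In CD4 cells H1f3 lost its call without CD4 KO replicate 1 (0.92), CD4 WT replicate 1 (1.17) or CD4 WT replicate 2 (0.94), and H3c7 without CD4 KO replicate 1 (1.25). H2bc15 lost its call in CD4 cells without CD4 KO replicate 1 (1.6), CD4 WT replicate 1 (1.38) or CD4 WT replicate 2 (1.47), and in DP cells without DP KO replicate 1 (-1.02), DP KO replicate 2 (-1.26), DP WT replicate 1 (-1.15) or DP WT replicate 3 (-0.89). H3c7, an H3 gene of chromosome 13, had 1.45, 0.837 and 1.04 CPM in CD4 KO cells, against 0.520, 0.373 and 0.268 CPM in CD4 WT cells, and 0.641, 0.623 and 1.09 CPM in DP KO cells, against 2.86, 1.68 and 1.79 CPM in DP WT cells. Its groups did not overlap in either cell type, and it was high in KO cells of one stage and low in those of the other. Genes with a stem-loop in an annotated transcript were set beside linker and core genes without one. In CD4 KO against CD4 WT cells 18 of 43 with a stem-loop and 14 of 20 without were called higher, with medians of 1.02 and 1.24. Over all genes tested 20.9% were called higher there. In DP KO against DP WT cells 14 of 43 with and 10 of 21 without were called lower, with medians of -0.64 and -0.84. The share of all genes tested called lower there was 14.1%. A difference between these sets was not tested. The set without may hold genes whose annotated transcript ends before the stem-loop, so the split is one of annotation.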

How the data were processed

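Raw read counts per gene were deposited by the authors as 1 table for DP and 1 for CD4 cells, from paired-end poly(A) libraries. Per the submitters' processing notes, Subread 1.0.1, R 4.1.5, DESeq2 and the mm10 build were used; which aligner, strand setting and the handling of reads that match several genes applied was not given in the sources. No sample column was left unused (0). Total counts per library and the level of 3 counts set the precision, and such limits cover counting error only.

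The counts were tested with edgeR 4.0.16 in R 4.3.3 (TMM, filterByExpr, quasi-likelihood test, Benjamini-Hochberg adjustment over all genes tested). Each pairwise comparison used its own 6 libraries, and the difference of knockout effects used all 12. DESeq2 1.42.0 (its size factors and its Wald test), no low-count filter, a replicate block, 1 model over all libraries and leaving out each library were alternatives, as was DP WT replicate 3 as the only DP WT library. Leaving the H2ac genes out of the counts and DP WT replicate 2 as the only DP WT library were added after seeing the data. The scripts were tested on simulated data. Named by rule were all variants, the 5 genes of each other class with the highest mean CPM and the 3 largest and 3 smallest called changes per comparison at an average log2 CPM of at least 0; H2ac7, H2ac18, H2ac19, the 4 testis genes and the genes listed as called in both cell types that fall outside this rule were named after their values were seen. The genes and lists were chosen with earlier results of these data known.

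The labels give a batch equal to the replicate number, which pairs the samples. Deviations from the group means of same-numbered libraries correlated at 0.02, -0.00 and 0.18 between DP KO and DP WT, at 0.12, 0.16 and 0.34 between CD4 KO and CD4 WT, at 0.22, 0.15 and 0.26 between CD4 WT and DP WT, and at 0.23, 0.37 and 0.49 between CD4 KO and DP KO cells. Sequences were read from RefSeq promoters and GENCODE M21 transcripts with Python 3.11.15, and figures were drawn with matplotlib 3.10.9.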

Additional observations from a re-analysis of the deposited data

Results flagged for a closer look

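The knockout effect differed between the cell types for 44 histone genes, by edgeR's quasi-likelihood test of the difference itself over all 12 libraries, and the named genes among them are given here as the log2 difference, CD4 effect minus DP effect. Among the linkers it was 3.25 for H1f10, 2.62 for H1f3, 2.57 for H1f5, 2.37 for H1f1 and 1.06 for H1f2. H3 genes had 2.92 (H3c7), 2.79 (H3c2), 1.87 (H3c13), 1.58 (H3c3), 1.55 (H3c14) and 1.35 (H3c15). H2B genes had 3.00 (H2bc15), 2.43 (H2bc18), 1.88 (H2bc12), 1.51 (H2bc11) and 0.71 (H2bc4). H2A genes had 1.79 (H2ac12), 1.78 (H2ac14, annotated as an unprocessed pseudogene), 1.499 (H2ac24), 1.497 (H2ac23) and 1.31 (H2ac11). H4 genes had 1.35 (H4c8), 1.18 (H4c18) and 1.05 (H4c9), and the variants 1.62 (H2ax), 1.17 (H2az1) and 1.07 (H2az2). Of these genes, 9 lost the call when 1 library was left out. H4c8 lost it without DP WT replicate 1 (0.96). The others each lost it without at least 4 of the 12 libraries in turn, with differences of 0.86 to 1.30 for H1f2, 0.55 to 0.85 for H2bc4, 1.02 to 1.36 for H4c18, 1.02 to 1.57 for H2ac11, 1.44 to 2.18 for H2ac12, 1.44 to 2.14 for H2ac14, 1.24 to 1.77 for H2ac24 and 1.24 to 1.76 for H2ac23 over all libraries left out. Groups of 3 libraries are too small for the outlier criterion used here.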

How the results depend on the processing

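With a replicate block, 31 in place of 16 histone genes were called lower in CD4 KO against DP KO cells and 1 in place of 0 lower in CD4 KO against CD4 WT cells. Without the low-count filter these counts were 30 and 2, and 4 in place of 1 were called higher in DP KO against DP WT cells. In CD4 KO against CD4 WT cells edgeR's test with DESeq2 size factors called 1 lower, and the DESeq2 Wald test called 2 lower. Without the H2ac genes 9 were called lower in CD4 KO against DP KO cells. Against DP WT replicate 3 alone, 7 were called higher and 5 lower in DP KO cells, and against DP WT replicate 2 alone, 0 and 7, with the lone library assumed to vary like the DP KO libraries. Leaving out 1 library gave 13 to 30 lower in DP KO against DP WT, 0 to 2 lower in CD4 KO against CD4 WT and 6 to 21 lower in CD4 KO against DP KO cells. Counted per kb, the log2 ratio of the H1f sum was -0.18 for DP KO against DP WT, in place of 0.19, and -1.99 for CD4 WT against DP WT, in place of -1.74, and that of the H2bc sum was 0.91 for CD4 KO against CD4 WT, in place of 0.61, and -1.92 for CD4 WT against DP WT, in place of -1.56. Changes of uncalled genes turned sign. In DP KO against DP WT cells without the filter Macroh2a1 came to 0.015 and H2az1 to 0.0057. Leaving out 1 library there gave -0.054 to 0.043 for Macroh2a1, -0.11 to 0.031 for H2az1, -0.16 to 0.32 for H2ac24 and -0.11 to 0.38 for H2ac23, and in CD4 KO against CD4 WT cells -1.75 to 1.36 for H2ac10. The cause was not tested. Low counts of most core and linker genes limit the precision.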
